A study of Saccharomyces cerevisiae with 3 samples.

Results

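The proteasome genes described here are 33 genes of Saccharomyces cerevisiae, out of 5449 named genes of this yeast with a probe set on the array. They were taken by name, from a fixed list of symbols: core particle subunits with SCL1, PRE and PUP symbols, regulatory particle subunits with RPT and RPN symbols, and the activator RPN4. The lid subunit SEM1 is outside that list and is described with the other genes of the ubiquitin system. Each of the 33 symbols matched exactly 1 probe set, and all 33 probe sets are of the plain kind (IDs ending in _at), which the array maker assigns to probes for 1 transcript. The set holds 7 genes of the alpha ring, 7 of the beta ring, 6 ATPases and 4 other subunits of the base, 8 lid subunits and the 1 activator.

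The series consists of 3 arrays, 1 in each group. The first was hybridized with yeast background alone (100% baseline), the second with 99% baseline and 1% spike and the third with 90% baseline and 10% spike. The nature of the spike is not given in the sources used here. Every array carried total RNA of the same kind of yeast: background W303, mating type MAT-alpha, carrying cdc15-2, a conditional allele of a mitotic exit kinase. It was grown in minimal medium in a fermentor at 23 °C and taken 340 minutes after cells were released from the restrictive temperature. The mutation, the mating type and the growth conditions were thus common to all 3 arrays, and whether a single RNA extract was divided between them is not stated. With 1 array in each group no difference has a replicate check and no test was run. Precision is limited by there being only 3 arrays.

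The 26S proteasome is the complex that degrades proteins marked with ubiquitin. Its core particle is a barrel of alpha and beta rings that encloses the proteolytic sites. The regulatory particle has a base, whose ATPases unfold the substrate and feed it into the barrel, and a lid, which removes the ubiquitin chain. In budding yeast most of these genes are activated together by Rpn4, a short-lived factor that the proteasome itself degrades. Cells leave mitosis by sending B-type cyclins and other regulators to this complex.

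Values are the deposited RMA expression values on a log2 scale, 1 for each probe set and array. RMA corrects background, gives the arrays nearly the same distribution and combines the probes of a probe set. Over all 10928 probe sets the values ran from 3.46 to 15.13. The brightness of a probe set also depends on its probe sequences, so levels are given to show where on the scale a gene was read and are not ranked against each other as transcript amounts. A level in RNA of a whole culture does not separate the number of cells from the RNA per cell. The mating-type markers were read on the same arrays. In the baseline array the 4 alpha markers MF(ALPHA)1, MF(ALPHA)2, STE3 and SAG1 lay between 13.75 and 14.64, and the 4 markers of the opposite mating type, MFA1, MFA2, STE2 and BAR1, between 9.60 and 10.99. The 27 labelled hybridization controls were all higher in the 10% array than in the baseline array, by a median of 0.51. The part of that shift in the values below was not tested.

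All proteasome genes were read in the upper part of the scale and stayed at nearly the same value on the 3 arrays. In the baseline array they lay between 11.70 (RPN3) and 13.65 (PRE2), with a median of 12.67. The median was also 12.67 in the 1% array and 12.67 in the 10% array. For orientation on the scale, the 5498 S. cerevisiae probe sets had a median of 10.81 and an upper quartile of 11.97 in the baseline array. The widest distance between the highest and lowest array was 0.14 for any proteasome gene, and the median distance was 0.019. Over all S. cerevisiae probe sets that median distance was 0.030, and over the 1374 whose baseline value lay within the range of the proteasome genes it was 0.026.

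**Figure D1:**
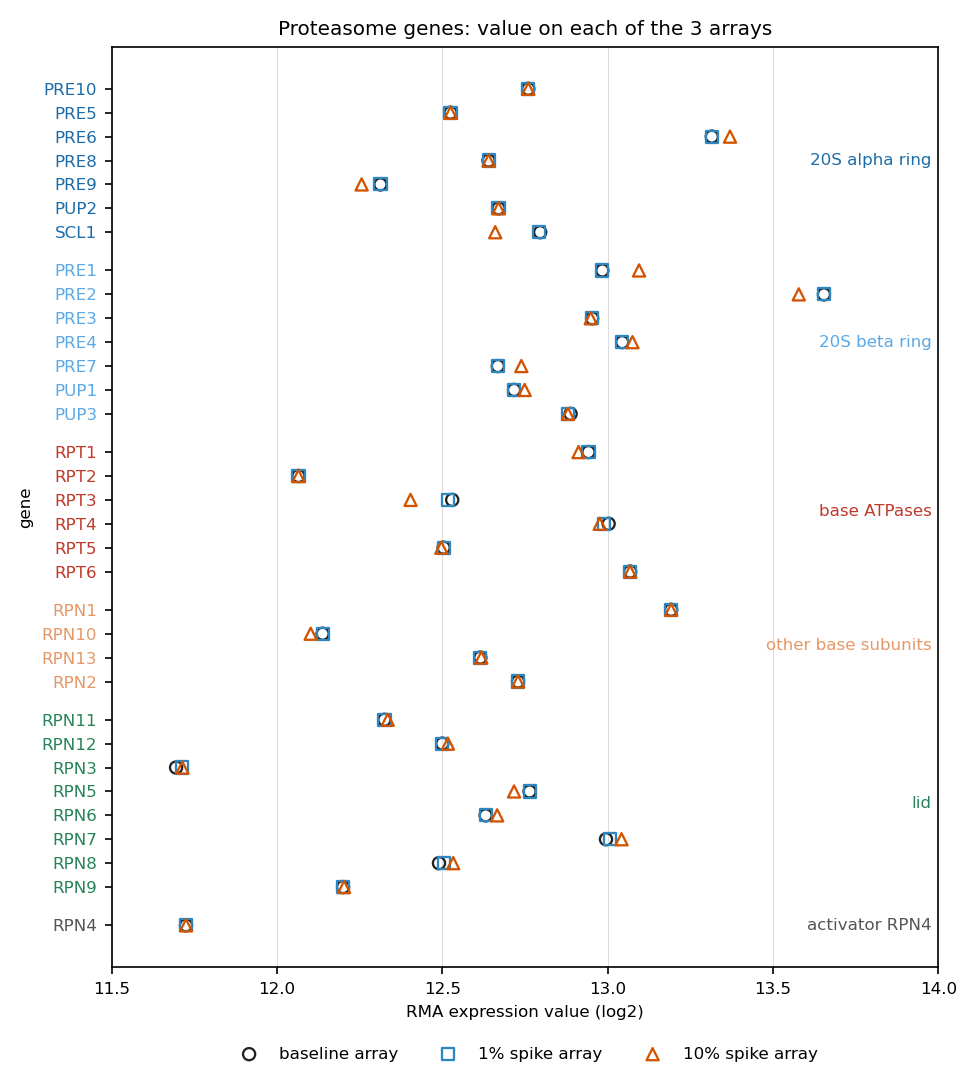
RMA expression value (log2, x axis) of each of the 33 proteasome genes (rows, coloured by particle) on the baseline array (circles), the 1% spike array (squares) and the 10% spike array (triangles). The 3 symbols of a gene overlap in most rows, and the widest separation, at SCL1, is 0.14.

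No proteasome gene differed by 2-fold (1 on the log2 scale) in any of the 3 comparisons. In 1% over baseline the count was 0 of 33 in both directions, where 0% of the S. cerevisiae probe sets were at least 2-fold higher and 0% at least 2-fold lower. In 10% over baseline the count was again 0, beside 0.0182% of all S. cerevisiae probe sets higher and 0.0364% lower by that much. In 10% over 1% it was 0, beside 0.0182% higher and 0.0364% lower. So few probe sets of this yeast passed the threshold that a count of 0 among 33 is what the background share gives as well, and smaller differences were therefore described.

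At 1% spike, 26 of the 33 proteasome genes had exactly the baseline value to 3 decimals. Another 3 were higher and 4 lower, where 22.6% of all S. cerevisiae probe sets were higher and 14.5% lower. The identical share was 78.8% of the proteasome genes and 62.9% of all S. cerevisiae probe sets. The differences ran from -0.014 at RPT4 to 0.019 at RPN3. At 10% spike, 13 were higher (39.4%), 11 lower (33.3%) and 9 identical, where 45.1% of the S. cerevisiae probe sets were higher and 27.2% lower. Of the S. cerevisiae probe sets of like level 52.9% were higher and 21.3% lower. The differences ran from -0.14 at SCL1 to 0.11 at PRE1, with a median of 0, the same median as over all S. cerevisiae probe sets. Over those of like level the median was 0.0045. The mean was -0.0023 over the proteasome genes and 0.018 over those of like level. Between 10% and 1% spike, 12 were higher, 10 lower and 11 identical, beside 41.2% and 24.2% of the background higher and lower. These 3 comparisons share arrays and are not independent of each other.

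Only SCL1, RPT3 and PRE1 differed by 0.1 or more in 10% over baseline. That is 1 gene higher, beside 9.49% of all S. cerevisiae probe sets, and 2 genes lower, beside 8.09%. Among the 1374 probe sets read at a like level, 7.79% were higher and 2.91% lower by as much. In those 1374 probe sets, the central 90% of differences (percentiles 5 to 95) lay between -0.075 and 0.12. SCL1, RPT3 and PRE2 lay below that interval and none of the proteasome genes lay above it. The standard deviation of the differences was 0.049 over the proteasome genes and 0.060 over those 1374 probe sets.

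**Figure D2:**
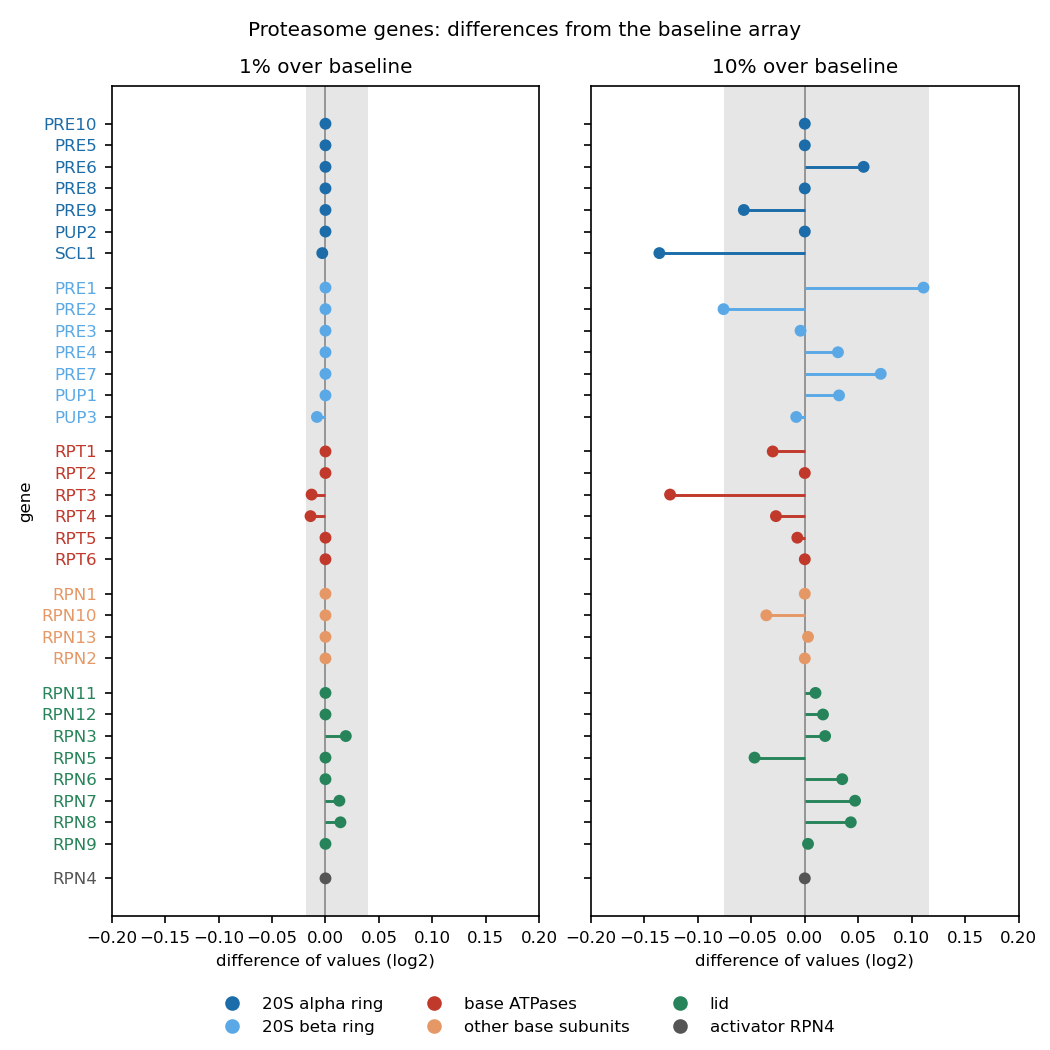
Difference of RMA values (log2, x axis) from the baseline array for each proteasome gene (rows, coloured by particle), at 1% spike (left) and 10% spike (right); grey bands hold percentiles 5 to 95 of the 1374 S. cerevisiae probe sets in the same level range. At 1% all genes lie between -0.014 and 0.019; at 10% SCL1, RPT3 and PRE2 lie left of the band.

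**Figure D3:**
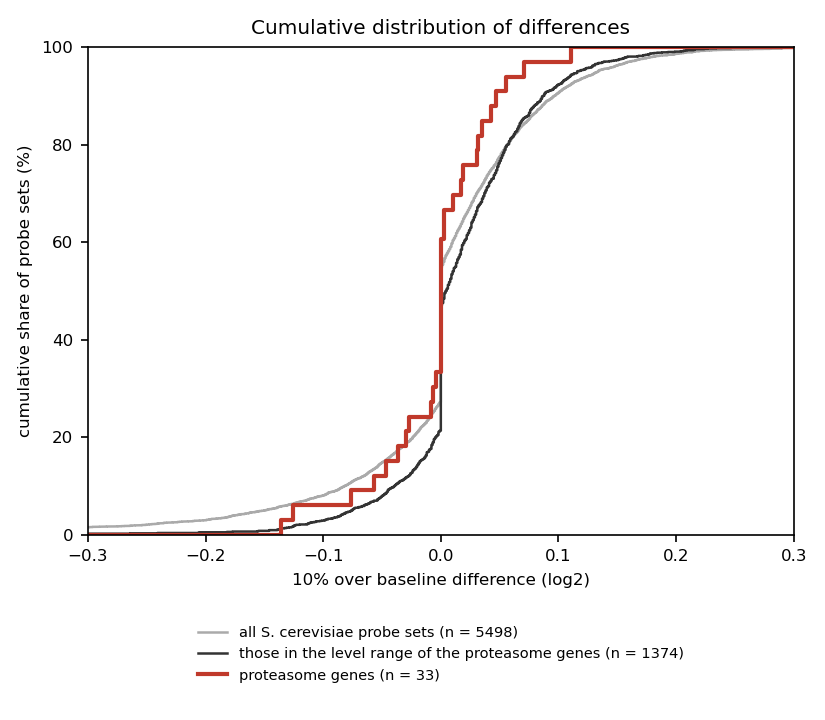
Cumulative share (y axis, %) of probe sets at or below a given 10% over baseline difference (x axis, log2) for the 33 proteasome genes (red), the 1374 S. cerevisiae probe sets in their level range (black) and all 5498 (grey). The vertical step at 0 is the share of exactly equal values, and the red curve ends at 0.11.

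The alpha ring, whose subunits form the gate of the core particle, was the group with the most exactly repeated values. PRE8, PUP2, PRE5 and PRE10 each had the same value on all 3 arrays, at 12.64, 12.67, 12.53 and 12.76. SCL1 (YGL011C), an alpha subunit, was read at 12.80 without spike, 12.79 at 1% spike and 12.66 at 10% spike. Its 10% value was the lowest of the 3 and corresponds to 0.910 times the baseline signal. PRE9 (YGR135W), the alpha subunit that yeast can live without, was at 12.31 on the first 2 arrays and 12.26 at 10% spike, a difference of -0.057. PRE6 (YOL038W), the subunit that can take the place of Pre9 in the ring, went the other way, from 13.32 on the first 2 arrays to 13.37 at 10% spike, a difference of 0.055. Of all S. cerevisiae probe sets 45.1% were higher, 27.2% lower and 27.7% identical in 10% over baseline. The ring had 1 gene higher, 2 lower and 4 identical, with a median difference of 0. Its summed linear signal in the 10% array was 99.1% of that in the baseline array.

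In the beta ring, which carries the active sites, every gene had a value at 10% spike that differed from the baseline value, but none by more than 0.11. Only 27.7% of all S. cerevisiae probe sets, and 25.8% of those of like level, had identical values in that comparison. PRE2 (YPR103W), the subunit with chymotrypsin-like activity, was at 13.65 on the baseline and 1% arrays and 13.58 on the 10% array, a difference of -0.076. PUP1 (YOR157C), the trypsin-like subunit, was at 12.72 on the first 2 arrays and 12.75 on the 10% array. PRE3 (YJL001W), the caspase-like subunit, was at 12.95 on all 3, its 10% value lower by 0.004. Of the catalytic genes 1 was higher and 2 were lower at 10% spike, PRE3 by only 0.004. Of all S. cerevisiae probe sets 45.1% were higher and 27.2% lower, and of those of like level 52.9% and 21.3%.

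Of the non-catalytic beta genes, PRE1, PRE7 and PRE4 were higher on the 10% array than at baseline and PUP3 was lower. PRE1 (YER012W) had the largest positive difference of all proteasome genes, from 12.98 on the baseline and 1% arrays to 13.10 at 10% spike, or 1.08 times the baseline signal. PRE7 (YBL041W) was at 12.67 on the first 2 arrays and 12.74 on the third, a difference of 0.071. PRE4 differed by 0.031 and PUP3 by -0.008. Over the ring, 4 genes were higher and 3 lower. Of all S. cerevisiae probe sets 45.1% were higher and 27.2% lower, and of those of like level 52.9% and 21.3%. The summed linear signal of the ring was 101.0% of baseline, and its median difference was 0.031 as deposited. That median was 0.002 after quantile normalization over again, 0.013 with the trend on level removed and 0.015 with centred arrays. Under each of these scalings 4 genes were higher and 3 lower.

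The ATPases of the base, which form the unfolding ring Rpt1 to Rpt6, had no gene above its baseline value. RPT3 (YDR394W) was read at 12.53 without spike, 12.52 at 1% spike and 12.40 at 10% spike, or 0.916 times the baseline signal. The 10% value was the one that stood apart, since the other arrays differed by 0.013. RPT1 (YKL145W) was at 12.94 on the first 2 arrays and 12.91 on the third, a difference of -0.030. RPT4 was lower by 0.027 and RPT5 by 0.007 at 10% spike. RPT6 (YGL048C) stood at 13.07 on all 3 arrays and RPT2 (YDL007W) at 12.06, with no difference. In all, 4 ATPase genes were lower, 2 identical and 0 higher, beside 27.2% lower and 45.1% higher of all S. cerevisiae probe sets. Of those of like level 21.3% were lower and 52.9% higher. The ATPase genes had a median of -0.017. The median was -0.038 after quantile normalization over again, -0.036 with the trend on level removed and -0.033 with the arrays centred on their means, and all 6 were lower in each of these. The same scalings moved the median of all non-control probe sets by -0.012 to -0.016, and a gene with equal deposited values then counts as lower. Under each of them the alpha ring had 6 of 7 genes lower and the other base subunits 4 of 4. With RPT3 alone past 0.1 the other 5 differed by at most 0.030.

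The other base subunits hold the ATPase ring and bind ubiquitin. RPN1 (YHR027C) and RPN2 (YIL075C), the large scaffold subunits, had the same value on all 3 arrays, 13.19 and 12.73. The ubiquitin receptor gene RPN10 (YHR200W) was at 12.14 on the first 2 arrays and 12.10 on the third, a difference of -0.036. The other receptor, RPN13 (YLR421C), differed by 0.003 from a baseline value of 12.62. Over the whole base, ATPases included, 1 gene was higher, 5 were lower and 4 were identical at 10% spike. Of all S. cerevisiae probe sets 45.1% were higher and 27.2% lower, and of those of like level 52.9% and 21.3%. The summed linear signal of the base was 98.6% of baseline.

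The lid genes were mostly higher than baseline on the 10% array as deposited. Under 2 of the 3 other scalings the sign of their median changed, while the median of the like-level probe sets also moved down. RPN7 (YPR108W), a structural lid subunit, was read at 12.99 without spike, 13.01 at 1% spike and 13.04 at 10% spike, a difference of 0.047. RPN5 (YDL147W), another structural subunit, was the exception, at 12.76 on the first 2 arrays and 12.72 on the third, a difference of -0.047. RPN3 (YER021W) had the lowest value of the proteasome genes, 11.70 at baseline, and 11.71 on both spiked arrays. RPN11 (YFR004W), the deubiquitinating enzyme of the lid, differed by 0.010 from a baseline value of 12.32.

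The remaining lid genes RPN6, RPN8, RPN9 and RPN12 differed by 0.035, 0.043, 0.003 and 0.017 at 10% spike. As deposited, 7 of 8 lid genes were higher and 1 was lower, with a median of 0.018. Of all S. cerevisiae probe sets 45.1% were higher and 27.2% lower, and of those of like level 52.9% and 21.3%. After quantile normalization over again 3 were higher and 5 lower with a median of -0.006, and with the trend on level removed 3 were higher and 5 lower. With centred arrays 5 were higher and 3 lower. The median of the like-level S. cerevisiae probe sets was 0.0045 as deposited. Under these scalings, in the same order, it was -0.017, -0.0145 and -0.0115. The sign of a small difference thus depended on where the scaling placed 0. The widest distance between arrays for any of these 8 lid genes was 0.047, and the further lid gene SEM1 differed by -0.092. A difference between lid and ATPase genes was not tested.

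RPN4 (YDL020C), the activator of the set, is not a subunit. Its value was 11.72 on each array, with no difference between any of them. It was 1 of 9 proteasome genes whose values were identical on all 3 arrays, a share of 27.3%, beside 25.9% of all S. cerevisiae probe sets. The others are PRE8, PUP2, PRE5, PRE10, RPT2, RPT6, RPN1 and RPN2. Median polish, the last step of RMA, can return exactly equal values when few arrays are summarized, so exact repeats do not measure how closely the RNA amounts matched.

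The summed linear signal of the 33 genes in the 10% array was 99.9% of that in the baseline array. The labelled shares put a yeast transcript of the 10% array at 90% of its baseline amount, or -0.152 on the log2 scale. That holds only if the spike itself adds none of these transcripts, which the sources used here do not state. All 33 proteasome genes lay above -0.152, but so did most S. cerevisiae probe sets. Percentile 5 was -0.15 over all of them and -0.075 over those of like level. The arrays had been given nearly the same distribution, the largest gap between their sorted values being 0.092. The size of a shift common to all yeast RNA can therefore not be read from these values.

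In the order of the protein-coding genes of the R64 gene table no 2 of the 33 were direct neighbours. The closest pairs were PRE4 and RPN12, with RET2 between them, and RPT4 and RPN8, with GCD1 between them. Within the first pair the 10% over baseline differences were 0.031 and 0.017, and within the second -0.027 and 0.043, so members of the second pair lay on opposite sides of 0. Annotated gene lengths ran from 471 bases (RPN13) to 2982 bases (RPN1).

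A further 22 probe sets carry a proteasome symbol in lower case. These symbols are not in the S. cerevisiae gene table, the organism of these probe sets is not given in the sources used here, and they are not among the 33. Of them, 21 were read between 4.23 and 7.72 in the baseline array, with a median of 5.18, while the 33 upper-case genes were read from 11.70 upward. In 10% over baseline, 12 of the 21 were identical, 4 higher and 5 lower, between -0.17 (rpn7) and 0.27 (rpn12). The probe set rpt3 stood apart from these 21. How often other probe sets outside the S. cerevisiae gene table rose or fell was not counted, so no background share stands beside these counts or beside rpt3. It was read at 7.001 without spike, 7.776 at 1% spike and 10.64 at 10% spike, which are differences of 0.775 and 3.64. Upper-case RPT3 had a difference of -0.13 between the same arrays, on the other side of 0 from rpt3. Of the other lower-case ATPase symbols, rpt2 was higher by 0.19, rpt1 was lower by 0.081 and rpt5 by 0.029, and rpt4 and rpt6 were identical on all arrays.

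**Figure D4:**
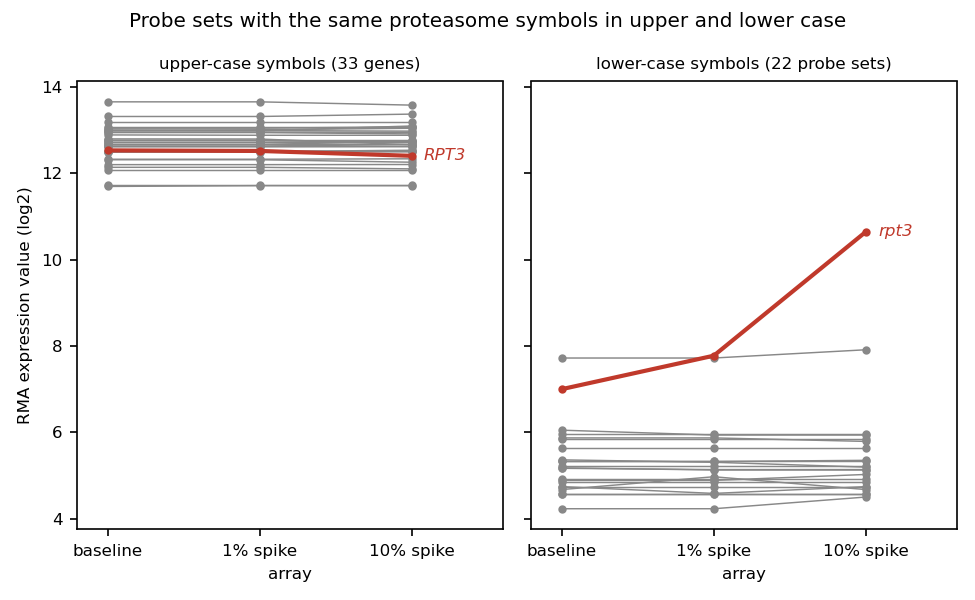
RMA expression value (log2, y axis) on each array (x axis) for the 33 upper-case proteasome genes (left) and the 22 probe sets with lower-case proteasome symbols (right), 1 line for each probe set. The lower-case rpt3 (red, right) goes from 7.001 to 10.64, and the upper-case RPT3 (red, left) from 12.53 to 12.40.

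Of the symbols listed for the rest of the ubiquitin system, 1, ADC17, matched no probe set under that name. The others were read on the same arrays as 67 genes of 7 lists. None differed by 2-fold, and in 10% over baseline 30 were higher, 12 lower and 25 identical, with a median of 0. The share higher was 44.8% and the share lower 17.9%, beside 45.1% and 27.2% of all S. cerevisiae probe sets, and the counts of the single lists below are to be read against those shares. The chaperones that assemble the proteasome (10 genes) had 6 higher, 2 lower and 2 identical and a median of 0.032. Among them ADD66, a chaperone of the alpha ring, was read at 10.93 without spike, 10.94 at 1% spike and 11.04 at 10% spike, a difference of 0.11. UMP1, the maturation factor of the core particle, was at 12.28 in the baseline array and lower by 0.044 on both spiked arrays.

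Factors that bind the mature complex (9 genes) had a median of 0, with 2 higher, 2 lower and 5 identical. ECM29, which tethers core and regulatory particle, was at 10.73, 10.72 and 10.61 on the baseline, 1% and 10% arrays, a difference of -0.12. SEM1, a small lid subunit whose symbol is outside the rule, differed by -0.092. UBP6, the deubiquitinating enzyme bound to the base, was at 12.35 on all 3 arrays.

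Genes for ubiquitin, its activating enzyme and the shuttle factors (8 genes) had 5 higher, 1 lower and 2 identical, with a median of 0.019. UBA1, the ubiquitin-activating enzyme, was at 12.84, 12.88 and 12.96 on the 3 arrays, a difference of 0.12, and the polyubiquitin gene UBI4 was at 13.21 on each. In the list around Cdc48, the segregase that pulls ubiquitinated proteins out of complexes, 2 of 6 genes were higher, 0 lower and 4 identical. NPL4, a cofactor of Cdc48, differed by 0.095.

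The list of genes that act on RPN4 holds its upstream activators and the ligase that marks its product for degradation. Of its 7 genes, 3 were higher, 3 lower and 1 identical. MUB1, a partner of the ligase Ubr2, was at 10.30, 10.36 and 10.43, a difference of 0.13 at 10% spike. HSF1, the heat shock factor, differed by 0.099, while PDR1 and YAP1, regulators of drug and oxidative stress responses, differed by -0.024 and 0.021.

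Among ubiquitin-conjugating enzymes (11 genes) 5 were higher, 2 lower and 4 identical. UBC8 had the largest difference, 0.099, and UBC11, read at only 7.345 in the baseline array, differed by -0.098. RAD6 is counted both here and in the list of genes that act on RPN4. Among deubiquitinating enzymes (17 genes) 7 were higher, 3 lower and 7 identical. UBP12 was at 10.67 on the first 2 arrays and 10.49 on the third, a difference of -0.18, which was the largest in size among these 67 genes and the 33 proteasome genes. The median difference was 0 in both lists.

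**Figure D5:**
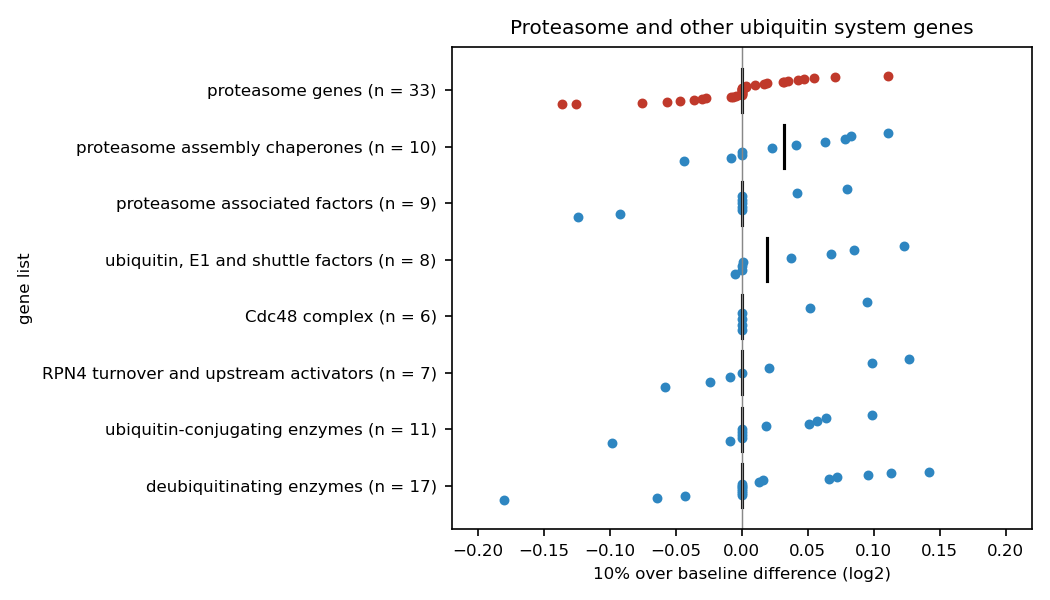
Difference of RMA values between the 10% spike array and the baseline array (x axis, log2) for the 33 proteasome genes (red points) and 7 lists of other ubiquitin system genes (blue points), with the median of each list as a black bar. All points lie between -0.18 and 0.14, and the assembly chaperones have the highest median, 0.032.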

How the data were processed

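Total RNA was measured on 3 arrays, 1 in each group. The deposited values are log2 expression values, and RMA is named per the submitters' processing notes, with no version. No label states the log2 scale, which rests on RMA's usual output and the range of the values. The values were used as deposited. Names came from the platform annotation (7244 probe sets with 1 symbol, 1 with several, 3683 with none), and 5498 non-control probe sets matched the S. cerevisiae R64 gene table by gene identifier. The 166 control probe sets were kept out of the counts. Differences were taken between arrays and rounded to 3 decimals, with python 3.11.15, pandas 2.3.3 and statsmodels 0.14.6. Probe sets at or past 2-fold were counted. The counting was tested on simulated data. The members and lists were chosen with earlier results of these data known. The rule for named genes took, in each particle, the 2 largest differences in 10% over baseline and the highest and lowest baseline values, with the catalytic genes, RPN4, RPT3 and rpt3. It also took the largest difference in each other list. Genes outside it are named to account for every member. UMP1, SEM1, UBP6, UBI4, HSF1, PDR1, YAP1, UBC11, RAD6, rpn7, rpn12 and the other lower-case ATPase symbols were named after their values were seen. No coordinates or sequences are given, because no genome build is named for the probes.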

Additional observations from a re-analysis of the deposited data

Results flagged for a closer look

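The probe set with the lower-case symbol rpt3, which is outside the 33 proteasome genes, was higher by 3.64 (log2) in the 10% array than in the baseline array. It stood out because a signal well above the level of the array without spike appeared in a probe set that the comparisons of the 33 genes do not use. The other 21 probe sets with lower-case proteasome symbols differed by at most 0.27 in size. How many further probe sets outside the S. cerevisiae gene table rose as much as rpt3 was not counted. No group has 4 or more arrays, and no array was judged against others of its group.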

How the results depend on the processing

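The count at or past 2-fold was 0 in every comparison, also at 1.5-fold, after quantile normalization over again and with the loess trend on level removed. The median difference of the 33 genes lay between -0.023 and 0 over its 18 alternatives. Of these, the restriction to plain probe sets and the filter on dim probe sets removed no gene in any of the 3 comparisons and so left the value as it was. With no replicates there is no spread to judge a shift of a median by, and these values say nothing about stability. The other scalings moved the median of all non-control probe sets by -0.016 to -0.012 in 10% over baseline, close in size to the medians of the ATPase genes (-0.017) and the lid genes (0.018). The median of the lid genes changed sign, from 0.018 to -0.006 after quantile normalization over again and to -0.0035 with the trend removed. The median of the beta ring went from 0.031 to 0.002 and to 0.013 in the same order. That of the S. cerevisiae probe sets of like level went from 0.0045 to -0.017 and to -0.0145. For single particles these scalings were added after the data were seen. No paired analysis was possible because each group holds 1 array. Values are array signals without counts, so no depth is known.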
